A study of Homo sapiens with 6 samples.

Results

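Hepcidin, the liver hormone that limits the entry of iron into blood, and a small group of other iron handling genes were followed in the human hepatoma line HuH7 after depletion of the long noncoding RNA EGOT. The group was defined by gene name, but it was chosen with earlier results of these data known: HAMP, HFE, TFRC, TFR2, TF, HPX, SLC40A1, SLC11A2, HMOX1 and IREB2. Of these 10 genes, 6 had a probe set with that symbol in the platform annotation (HAMP, HFE, TFR2, TF, HPX and HMOX1), each with 1 probe set, out of 14812 named genes. TFRC, SLC40A1, SLC11A2 and IREB2 were not analysed here. All 6 samples were HuH7 cells transfected by lipofection with a plasmid expressing the double-stranded RNA kinase PKR, carrier plasmid and poly I:C, which mimics viral double-stranded RNA. The 3 control samples also received a control gapmer and the 3 others a gapmer against EGOT, at 50 pmol per well, and RNA was taken 36 hours after transfection. A gapmer is an antisense oligonucleotide whose DNA core lets RNase H cut the RNA it pairs with. The groups therefore differ in the gapmer alone, each group rests on 1 gapmer, and no sample lacked PKR and poly I:C. The labels do not say whether the replicates were separate cultures, so the p-values reflect only how these 6 samples spread, and that spread may be technical.

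Hepcidin is made mainly by hepatocytes and binds the iron exporter ferroportin, the product of SLC40A1, which is then degraded. Its transcription is raised by iron through BMP ligands, the co-receptor haemojuvelin and SMAD factors, with HFE and TFR2 as membrane proteins that sense iron-loaded transferrin. It is also raised in inflammation by interleukin 6 acting through JAK kinases and STAT3. Transferrin (TF) carries iron in plasma, hemopexin (HPX) carries free haem to the liver, and haem oxygenase 1 (HMOX1) breaks haem down and releases its iron.

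The sequences that define the groups are those the labels give as targets of the gapmers, of 16 and 15 bases, written in lower case. Each line is headed by its gapmer. Whether the letters are the gapmer's own strand or that of the RNA it pairs with was not checked.
EGOT gapmer: agagacacttagaaga
Control gapmer: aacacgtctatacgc

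The promoters of HAMP and HPX, the analysed members that passed the test, are shown because their transcripts moved in opposite directions. Each is the 250 bases before the RefSeq start (GRCh38.p14), read 5′ to 3′ on the gene's strand. Capitals mark matches, on either strand, to GGCGCC, the core of the element through which BMP signals act on HAMP, to TTCNNNGAA, the STAT site, or to TGACNNNGC, the core of the antioxidant response element. No motif overlapped another here.
HAMP, chr19:35282278-35282527, plus strand: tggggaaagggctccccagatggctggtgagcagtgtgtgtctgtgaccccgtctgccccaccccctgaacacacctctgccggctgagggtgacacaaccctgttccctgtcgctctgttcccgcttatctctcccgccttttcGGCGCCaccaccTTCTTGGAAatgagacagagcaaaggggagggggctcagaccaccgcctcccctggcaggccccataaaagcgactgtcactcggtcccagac
HPX, chr11:6440988-6441237, minus strand: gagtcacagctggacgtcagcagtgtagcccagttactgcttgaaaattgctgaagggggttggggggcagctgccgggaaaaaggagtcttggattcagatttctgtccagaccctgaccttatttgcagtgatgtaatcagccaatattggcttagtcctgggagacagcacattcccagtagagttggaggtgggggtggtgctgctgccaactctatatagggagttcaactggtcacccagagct

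The HAMP window held GGCGCC from base -105 and TTCTTGGAA, a match to the STAT site, from base -93, counted back from the start. Among all 35116 promoter windows of that length, 16.4% held GGCGCC, 6.57% held TTCNNNGAA and 10.9% held TGACNNNGC. The HPX window held none of the 3 motifs, and neither did that of HFE. Both RefSeq windows of TF, whose level did not pass the test, held GGCGCC. TFR2, HMOX1 and BMP2 had no entry in the promoter table. The windows of SMAD6 and SMAD7, genes of the same pathway, held neither GGCGCC nor TTCNNNGAA. TGACNNNGC matched once in the SMAD6 window, from base -192 on the opposite strand, and once in 1 of the 3 SMAD7 windows, from base -106. These matches describe letters only, and the arrays did not measure binding.

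The targeted transcript was lower in the EGOT gapmer arrays. EGOT, a gene on chromosome 3, read 6.29, 6.79 and 6.71 on the log2 scale with the control gapmer and 4.91, 4.90 and 4.69 with the EGOT gapmer. The groups did not overlap, and 29.5% of the control level was left (limma adjusted p = 0.0076). With 3 arrays against 3, a two-sided exact permutation test cannot go below p = 0.1, which is the value EGOT gave. Over all 14812 genes, 8.41% passed the test at an adjusted p of 0.05 (limma, Benjamini-Hochberg), 5.20% of them higher and 3.21% lower with the EGOT gapmer as shares of all genes. The groups did not overlap in 31.7% of genes. The labelled hepatoma identity was matched in both groups by albumin (ALB) at 13.68 and 13.67 and alpha-fetoprotein (AFP) at 13.32 and 13.29. They belong to 8 hepatocyte markers analysed, whose differences between groups are given further below.

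HAMP fell and HPX rose, while HFE, TFR2, TF and HMOX1 did not pass the test. So 1 of the 6 analysed genes rose and 1 fell, against 5.20% and 3.21% of all genes. The median log2 difference of the 6 genes was 0.04, and that of all genes was also 0.04. With so few genes the shares carry little weight, and the genes are described singly below.

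**Figure D1:**
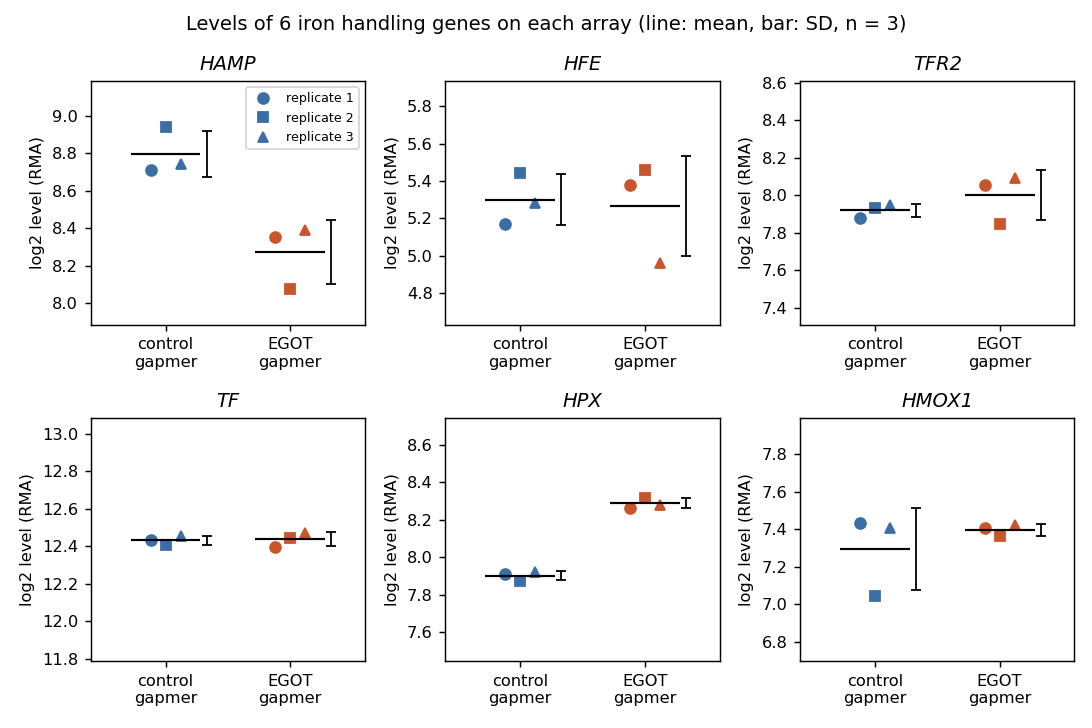
RMA log2 level (y axis, the same height of 1.3 log2 units in each panel) of 6 iron handling genes on the 3 control gapmer arrays (blue) and the 3 EGOT gapmer arrays (orange), with symbols for the replicate numbers, a line at the mean and a bar of 1 SD. The groups are apart for HAMP (8.71 to 8.94 against 8.08 to 8.39) and HPX (7.87 to 7.92 against 8.26 to 8.32) and overlap for the other 4 genes.

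HAMP encodes hepcidin and lies on chromosome 19 (GRCh38.p14, 35282528 to 35285143). Its log2 level was 8.71, 8.94 and 8.74 in control gapmer replicates 1, 2 and 3, and 8.35, 8.08 and 8.39 in EGOT gapmer replicates 1, 2 and 3. Every EGOT gapmer array lay below every control gapmer array, with EGOT gapmer replicate 2 the lowest and control gapmer replicate 2 the highest. The means were 8.80 ± 0.122 (SD, n = 3) and 8.27 ± 0.171 (SD, n = 3). HAMP fell by 0.53 on the log2 scale with a standard error of 0.110 (limma adjusted p = 0.0341). That is 69.5% of the control level, with a 95% interval from 58.1% to 83.1%. Ranked from the largest fall, it was number 173 of 14812 genes.

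The HAMP difference ran from -0.59 to -0.43 over the 16 alternatives, several of which leave it unchanged by construction, but its call varied. With any 1 of the 6 arrays left out HAMP no longer passed, with limma adjusted p between 0.0637 (without EGOT gapmer replicate 2) and 0.117 (without control gapmer replicate 2). The number of genes passing over the whole table then fell from 1245 to between 9 and 579.

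HPX encodes hemopexin and lies on chromosome 11 (6431049 to 6440987). Its log2 level was 7.91, 7.87 and 7.92 in control gapmer replicates 1, 2 and 3, and 8.26, 8.32 and 8.28 in EGOT gapmer replicates 1, 2 and 3. The arrays of each group lay close together and the groups were well apart. The means were 7.90 ± 0.0241 (SD, n = 3) and 8.29 ± 0.0268 (SD, n = 3). HPX rose by 0.39 on the log2 scale with a standard error of 0.0642 (limma adjusted p = 0.0212), to 130.7% of the control level with a 95% interval from 117.7% to 145.1%. The difference lay between 0.30 and 0.40 under the 16 alternatives. HPX still passed without EGOT gapmer replicate 1 or 2, and did not without EGOT gapmer replicate 3 or any 1 control gapmer array (limma adjusted p from 0.0675 to 0.0933). Once a trend of the log2 differences on gene span was removed HPX was at 0.30 (limma adjusted p = 0.0503), while HAMP was at -0.59 and passed (limma adjusted p = 0.0380).

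**Figure D2:**
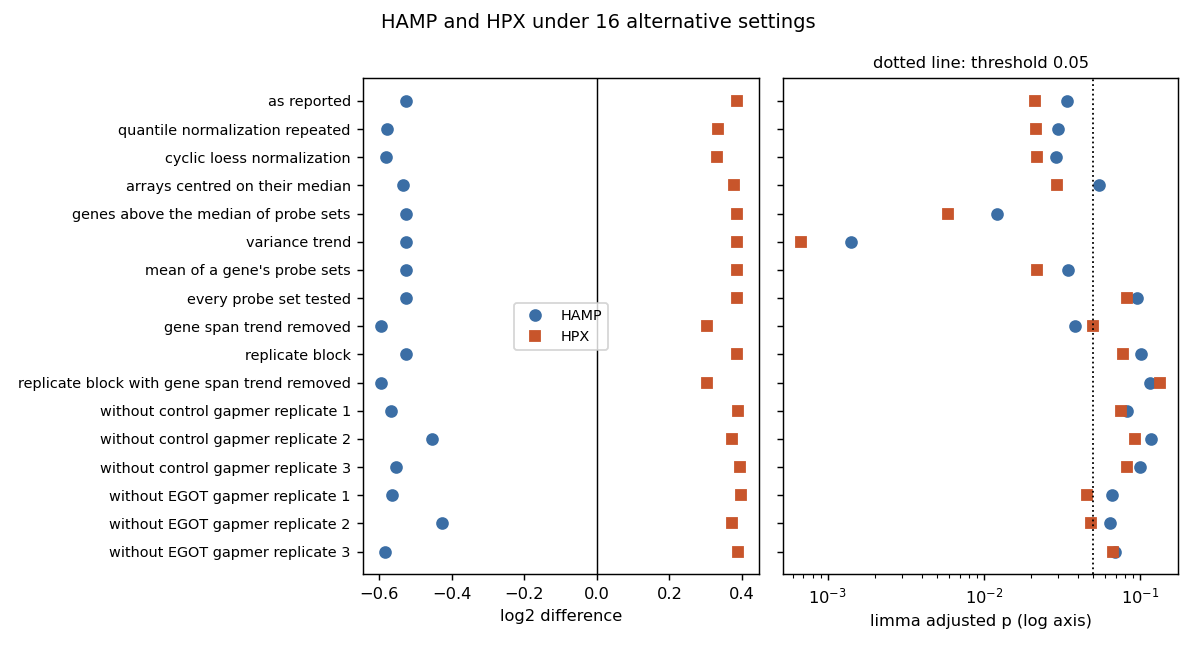
Log2 difference between EGOT gapmer and control gapmer (left, x axis) and limma adjusted p (right, log axis) of HAMP (circles) and HPX (squares) in the reported fit and under 16 alternative settings, 1 per row. The differences lay between -0.59 and -0.43 for HAMP and between 0.30 and 0.40 for HPX, and many settings could not turn their sign. The adjusted p lay on both sides of 0.05 (dotted).

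The membrane proteins that sense transferrin iron did not pass. TFR2, which encodes transferrin receptor 2, read 7.88, 7.93 and 7.95 with the control gapmer and 8.06, 7.85 and 8.09 with the EGOT gapmer. EGOT gapmer replicate 2 lay below all 3 control arrays and the other two above them. TFR2 differed by 0.08 on the log2 scale, standard error 0.0861 (limma adjusted p = 0.635), and the 95% interval ran from 91.8% to 121.5% of the control level. HFE, the gene mutated in the common form of hereditary haemochromatosis, read 5.17, 5.44 and 5.29 with the control gapmer and 5.38, 5.46 and 4.96 with the EGOT gapmer. The control values lay within the range of the EGOT gapmer values, and both were near the median of all probe sets (5.13). HFE differed by -0.03 on the log2 scale, standard error 0.143 (limma adjusted p = 0.917), with an interval from 77.5% to 123.4% of the control level. Without control gapmer replicate 2 or EGOT gapmer replicate 3 the HFE difference was above 0, at 0.04 and 0.12.

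Transferrin itself was the most tightly bounded of the genes that did not pass. TF read 12.44, 12.41 and 12.46 with the control gapmer and 12.40, 12.45 and 12.47 with the EGOT gapmer. The values were interleaved, and TF differed by 0.01 on the log2 scale, standard error 0.0654 (limma adjusted p = 0.972). The 95% interval ran from 90.2% to 111.7% of the control level. The sign of this small difference turned after cyclic loess, median centring and the loss of control gapmer replicate 2 or EGOT gapmer replicate 3.

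HMOX1, which opens the haem ring and yields biliverdin, carbon monoxide and iron, also did not pass. It read 7.43, 7.04 and 7.40 with the control gapmer and 7.40, 7.36 and 7.42 with the EGOT gapmer. Control gapmer replicate 2 stood below the other 5 arrays, which lay within a narrow band. HMOX1 differed by 0.10 on the log2 scale, standard error 0.114 (limma adjusted p = 0.645), and the interval ran from 89.2% to 129.1% of the control level. Without control gapmer replicate 2 the difference was -0.02.

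**Figure D3:**
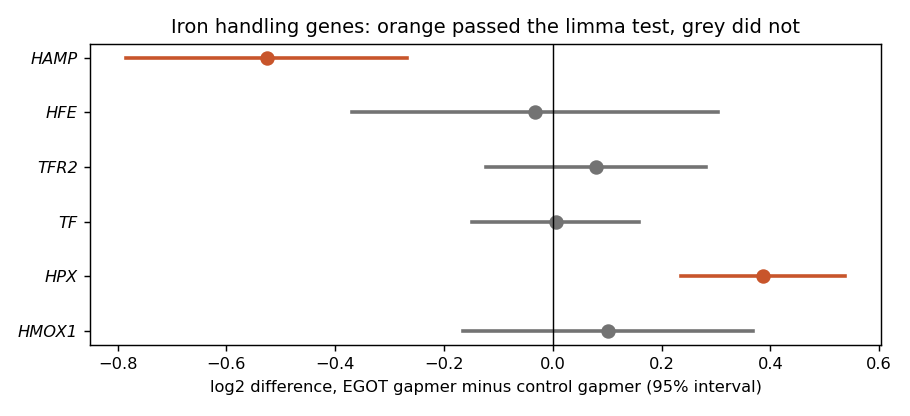
Log2 difference between EGOT gapmer and control gapmer (points) with its 95% interval from limma (lines) for the 6 iron handling genes. The intervals of HAMP (-0.78 to -0.27) and HPX (0.24 to 0.54) lie to either side of 0, and the other 4 span it.

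Other genes of the iron pathway were counted from 7 lists grouped by role, also chosen with earlier results of these data known. Of 103 genes listed, 68 were analysed. Of these, 5 rose and 4 fell, 9 of 68 against 8.41% of all genes, and their median log2 difference was 0.03 against 0.04. The groups did not overlap in 34 of the 68, against 31.7% of all genes. Over all genes 57.8% of log2 differences were above 0 and 42.2% below.

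In the BMP and SMAD branch, which drives hepcidin in response to iron, the genes that passed all fell. The list held 21 genes. ID1, TMPRSS6 and the receptor genes BMPR1A, BMPR1B, BMPR2, ACVR1 and ACVR2A were among those not analysed. Of 13 analysed members 3 fell and 0 rose, against 3.21% and 5.20% of all genes. In 12 of the 13 the log2 difference was below 0 (median -0.10), against 42.2% of all genes. Most of these 12 did not pass, and whether the list differs from other genes was not tested. The list holds inhibitors of the branch as well as genes that carry its signal. The count therefore gives no direction for the drive on hepcidin. Repeated quantile normalization, cyclic loess and median centring of the arrays each left 12 of the 13 below 0. It was 11 with the gene span trend removed and 10 without EGOT gapmer replicate 1. Leaving out control gapmer replicate 1 gave 12, and leaving out any 1 of the other 4 arrays gave 11.

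SMAD6 and SMAD7 encode inhibitory SMADs, which are induced by BMP signals and restrain them. SMAD6 read 7.79, 7.86 and 7.97 with the control gapmer and 7.53, 7.30 and 7.38 with the EGOT gapmer. It fell by 0.47 on the log2 scale with a standard error of 0.0904 (limma adjusted p = 0.0289), and its groups did not overlap. SMAD7 read 7.58, 7.75 and 7.74 against 7.27, 7.33 and 7.27, also without overlap, and fell by 0.40 with a standard error of 0.0763 (limma adjusted p = 0.0280). BMP2, a BMP ligand that can raise hepcidin, read 10.24, 10.30 and 10.28 against 9.97, 9.95 and 9.96. Its arrays were tightly grouped, and it fell by 0.32 with a standard error of 0.0642 (limma adjusted p = 0.0317). Like HAMP, these 3 genes lost their calls when 1 array was left out, except SMAD6 without EGOT gapmer replicate 1 (limma adjusted p = 0.0402). With arrays centred on their median BMP2 did not pass (limma adjusted p = 0.0508).

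Named for their role and outside the naming rule, SMAD4, SMAD1, SMAD5 and SMAD9 transmit BMP signals to the nucleus. Their log2 differences were -0.02, -0.09, -0.20 and -0.25 (limma adjusted p from 0.109 for SMAD9 to 0.930 for SMAD4). BMP6, the main ligand of iron sensing in liver, and HJV, which encodes haemojuvelin, were dim and at -0.14 and 0.07 (limma adjusted p = 0.684 and 0.653).

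**Figure D4:**
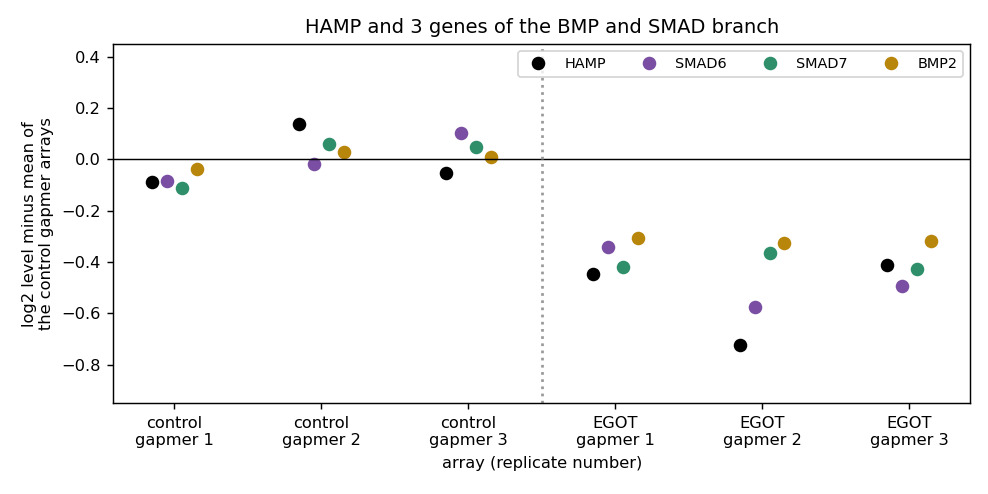
Log2 level of HAMP, SMAD6, SMAD7 and BMP2 on each array, minus that gene's mean over the 3 control gapmer arrays (y axis), for replicates 1 to 3 of each group (x axis). All 4 genes lie below 0 on each EGOT gapmer array, HAMP furthest on EGOT gapmer replicate 2. SMAD6 and SMAD7 encode inhibitors of BMP signals.

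In the interleukin 6 branch 1 of 7 analysed members fell and 1 rose, against 3.21% and 5.20% of all genes. The log2 difference was below 0 in 5 of the 7, against 42.2% of all genes, with a median of -0.03. After repeated quantile normalization or cyclic loess 6 were below 0, with medians of -0.08 and -0.08, and with the gene span trend removed 6 were below 0 and 0 passed. Without EGOT gapmer replicate 1 the median was above 0, at 0.03. JAK2, a kinase of cytokine receptors, read 7.17, 7.02 and 7.01 with the control gapmer and 6.47, 6.71 and 6.36 with the EGOT gapmer. It fell by 0.55 with a standard error of 0.107 (limma adjusted p = 0.0293), and with 1 array left out it passed only without EGOT gapmer replicate 2. CREB3L3, a liver transcription factor released in endoplasmic reticulum stress and an activator of HAMP, read 10.29, 10.18 and 10.18 against 10.46, 10.55 and 10.65. It rose by 0.34 with a standard error of 0.0793 (limma adjusted p = 0.0462), opposite to HAMP, and did not pass with any 1 array left out. It also did not pass after cyclic loess or median centring. STAT3, named for its role, differed by -0.03 on the log2 scale (limma adjusted p = 0.864), and the interleukin 6 receptor gene IL6R was also at -0.03 (limma adjusted p = 0.875).

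Among 15 genes of iron uptake, reduction, storage and release, 1 rose and 0 fell, against 5.20% and 3.21% of all genes. The list held 23 genes. Those not analysed included the ferritin genes FTH1 and FTL and the transporter genes SLC39A14 and SLC39A8, so the counts do not cover them. The median of 0.01 turned to -0.0022 after repeated quantile normalization, -0.0016 after median centring and -0.0068 with the gene span trend removed. It ran from 0.0063 to 0.049 with 1 array left out. PCBP1, an RNA-binding protein that also delivers iron to ferritin, read 9.88, 9.91 and 9.88 with the control gapmer and 10.16, 10.17 and 10.24 with the EGOT gapmer. It rose by 0.30 with a standard error of 0.0659 (limma adjusted p = 0.0386). It passed in 3 of the 16 alternatives. Of 5 genes of iron and oxygen sensing 1 rose and 0 fell, against the same shares. This was ARNT, the partner of the hypoxia-inducible factors, at 8.22, 8.22 and 8.34 against 8.54, 8.71 and 8.56. ARNT rose by 0.35 with a standard error of 0.0806 (limma adjusted p = 0.0445), and did not pass with any 1 array left out. It also did not pass with the gene span trend removed (limma adjusted p = 0.0650). In 4 of the 5 sensing genes the log2 difference was above 0, against 57.8% of all genes, with a median of 0.14. The groups did not overlap in 4 of the 5, all higher, against 31.7% of all genes. With the gene span trend removed the median was 0.12.

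Of 6 analysed haem synthesis genes 1 rose and 0 fell, against 5.20% and 3.21% of all genes. The log2 difference was above 0 in 4 of the 6, against 57.8% of all genes, with a median of 0.19. The median was 0.12 both without control gapmer replicate 1 and with the gene span trend removed. UROD, which encodes the fifth enzyme of the pathway, read 8.15, 8.13 and 8.23 with the control gapmer and 8.54, 8.79 and 8.83 with the EGOT gapmer. The groups were well apart, and UROD rose by 0.55 with a standard error of 0.0950 (limma adjusted p = 0.0232), to 146.0% of the control level. It also passed after removal of the gene span trend (limma adjusted p = 0.0451), and with 1 array left out it passed only without EGOT gapmer replicate 1. Of 9 genes of haem uptake, transport and breakdown 0 passed (limma), against 8.41% of all genes. By unadjusted limma p, 3 of the 9 were under 0.05, against 3708 of all 14812 genes. In 7 of the 9 the log2 difference was above 0, against 57.8% of all genes, with a median of 0.14. After repeated quantile normalization or cyclic loess it was above 0 in 6, with medians of 0.09 and 0.08. The 2 with the smallest p were the biliverdin reductase genes BLVRB and BLVRA, which act after haem oxygenase. BLVRB differed by 0.44 on the log2 scale (limma adjusted p = 0.0522) and BLVRA by 0.40 (limma adjusted p = 0.0915), and in neither did the groups overlap. Both passed with dim genes left out or with a variance trend.

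Of 13 genes of mitochondrial iron and iron-sulfur cluster assembly 1 rose and 0 fell, against 5.20% and 3.21% of all genes. ISCU, the scaffold on which clusters are built, read 7.15, 6.78 and 7.10 with the control gapmer and 7.51, 7.54 and 7.81 with the EGOT gapmer. It rose by 0.61 with a standard error of 0.128 (limma adjusted p = 0.0352), and did not pass with any 1 array left out. In 12 of the 13 the log2 difference was above 0, against 57.8% of all genes, with a median of 0.16. Whether this list differs from other genes was not tested. The median was 0.12 after repeated quantile normalization or cyclic loess, with 12 and 11 genes above 0. After removal of the gene span trend it was 0.08, with 10 above 0 and 0 past the test.

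**Figure D5:**
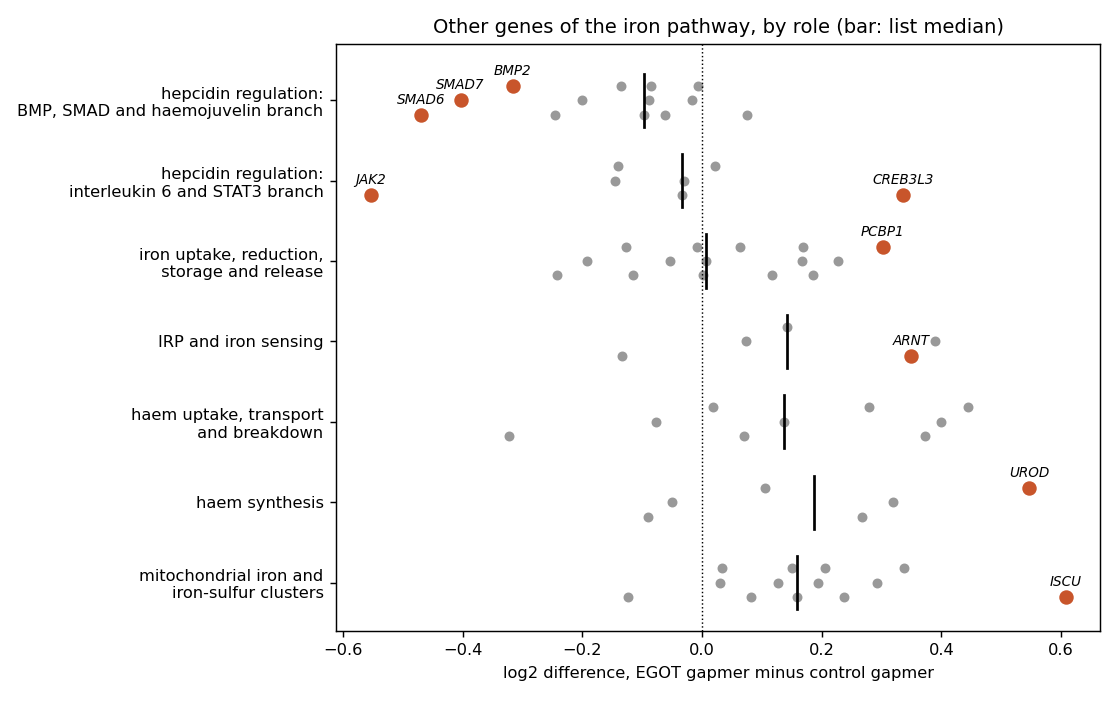
Log2 difference between EGOT gapmer and control gapmer (x axis) of the 68 analysed genes of 7 lists of the iron pathway (rows), with named orange points for the 9 that passed limma's test, grey points for the others and a bar at each list's median. The BMP and SMAD branch lies mostly below 0 (12 of 13 genes) and the mitochondrial list mostly above 0 (12 of 13).

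The genes whose 6 values followed those of HAMP most closely were QSOX2, TM9SF4 and ERN1, with Pearson r from 0.990 to 0.994 over the 6 arrays. For HPX they were ORMDL1, NELFCD and CREB3, with r from 0.998 to 0.999. The arrays fall into the 2 groups, so these values mostly reflect the difference between groups and describe likeness only. QSOX2 fell by 0.45 (limma adjusted p = 0.0293), while TM9SF4 and ERN1 did not pass, at -0.17 and -0.29. NELFCD rose by 0.28 and CREB3 by 0.34 (limma adjusted p = 0.0399 and 0.0272), while ORMDL1 did not pass, at 0.26 (limma adjusted p = 0.0523).

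Genes used as markers of other cell types were also read. All samples were labelled HuH7, so these values do not show that other cells were present. Of 6 analysed macrophage and leukocyte markers 2 rose and 0 fell, against 5.20% and 3.21% of all genes. CD68 rose by 1.06 and LYZ by 0.57 on the log2 scale (limma adjusted p = 0.0081 and 0.0171). The mean level of the 6 was 6.04 to 6.29 with the control gapmer and 6.41 to 6.64 with the EGOT gapmer. With the control gapmer CD68 and LYZ already had means of 8.23 and 8.77. CD163, CD14, CSF1R and CD2, also on that list, did not pass and had group means from 3.94 to 5.65. Of 4 endothelial, 2 fibroblast and stellate and 1 erythroid marker analysed 0 passed (limma), against 8.41% of all genes. By unadjusted limma p 0 of them were under 0.05, against 3708 of all 14812 genes. Of 8 hepatocyte markers 1 rose, APOA1, by 0.36 (limma adjusted p = 0.0406), and 0 fell, against 5.20% and 3.21% of all genes. The groups did not overlap in 4 of the 8, 2 higher (APOA1 and AHSG) and 2 lower, against 31.7% of all genes. The lower ones, APOB at -0.18 and TTR at -0.13, did not pass (limma adjusted p = 0.124 and 0.274). EGOT gapmer replicate 2, on which HAMP was lowest, had the highest array median, 5.23 against 5.08 to 5.15 on the other 5. The part of these differences in the HAMP and HPX results was not tested. In bulk RNA, fewer cells expressing a gene and less RNA per cell cannot be told apart.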

How the data were processed

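The deposited table holds log2 expression values that the authors made with RMA, per the submitters' processing notes, for 44629 probe sets of an Affymetrix Human Gene ST array. The name and version of the RMA software were not given in the sources used here. RMA is meant to align the distributions of the arrays, which hides a change in total RNA per cell. The medians of the deposited arrays still ran from 5.08 to 5.23. Symbols came from GEO's platform annotation: 15835 probe sets (35.5%) had 1 symbol and were used. Probe sets without a symbol, or with several, were left out by rule. All 15835 matched NCBI RefSeq GRCh38.p14, which also gave promoters and spans. A gene was represented by its probe set with the highest mean over the 6 arrays. The groups were compared with limma 3.58.1 in R 4.3.3 (lmFit, eBayes, two-sided, Benjamini-Hochberg over 14812 genes, threshold 0.05, 7.19 degrees of freedom), without covariates. Tested on simulated data over 14812 genes, the fit found 43 of 100 genes with a log2 change of 0.5 and 87 of 100 with a change of 1. Of its 136 calls, 6 were false. Only those genes were changed, with independent normal noise, far fewer than the 1245 genes that passed in the data. The adjusted p depends on that number, so these rates need not hold for the reported fit. Precision is limited by 3 arrays per group. The members, lists and tests were chosen with earlier results of these data known. Named genes are the members, EGOT, every gene of a list or marker list that passed (otherwise the 2 of an iron list with the smallest p), and the 3 genes most like each member that passed, by Pearson r. SMAD1, SMAD4, SMAD5, SMAD9, BMP6, HJV, STAT3, IL6R and the markers that did not pass fall outside this rule and were named after their values were seen. Listed genes named as not analysed have no values here and also fall outside it. Alternatives covered scaling, a filter on dim genes, the variance trend, probe set choice, gene span, the replicate block and each array left out.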

Additional observations from a re-analysis of the deposited data

How the results depend on the processing

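HAMP kept its direction in 16 of 16 alternatives and its call in 6, HPX in 16 and 8, and EGOT in 16 and 14. For direction, many of these alternatives could give no other outcome. The dim gene filter, variance trend, probe set choices and replicate block leave the differences of these genes unchanged. Their groups did not overlap, so the loss of 1 array could not turn a sign. In the reported fit 1245 genes passed. This became 2110 with genes above the median of probe sets only, 2513 with a variance trend, 119 with every probe set tested, 564 with the gene span trend removed, and 9 to 579 with 1 array left out. HAMP and HPX both lost their calls with every probe set tested (limma adjusted p = 0.0960 and 0.0822), HAMP alone when arrays were centred on their median (0.0545), and HPX alone with the gene span trend removed (0.0503). With 1 array left out, 0 or 1 analysed member rose and 0 fell. The other iron genes that rose, 5 in the reported fit, were 3 after cyclic loess or median centring, 8 with dim genes left out, 10 with a variance trend, 1 with the gene span trend removed, 0 with every probe set tested and 0 or 1 with 1 array left out. Those that fell, 4 in the reported fit, were 0 with every probe set tested and 0 or 1 with 1 array left out. The 9 genes called were all called again with dim genes left out or with a variance trend. Of all calls 61.8% were higher as deposited, 50.2% after repeated quantile normalization and 48.8% after cyclic loess. TF turned to -0.019 after cyclic loess and -0.0028 after median centring. With 1 array left out TF ran from -0.012 to 0.027, HFE from -0.13 to 0.12 and HMOX1 from -0.024 to 0.17, none past the threshold. The cause of these changes was not tested. Same-numbered arrays did not deviate together (r from -0.05 to 0.04), so the numbers are not taken as pairs. With the replicate block, 0 genes passed by limma, 3438 at an unadjusted p under 0.05, and EGOT stood at -1.76 (limma adjusted p = 0.0543), or -1.83 with the gene span trend also removed (0.0606). Probe sets near or below the median signal, such as those of HFE and BMP6, give the least signal over background.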
